A study of Homo sapiens with 15 samples.

Results

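The collagen chains described here are the genes whose symbol has the form COL, number, A, number, without COL2A1, the 3 COL9A chains and the 2 COL11A chains that make up cartilage-type fibrils. The rule used names only and no measured value, and it kept 38 of the 44 collagen chain symbols among 60605 genes. They were divided into 8 fibrillar chains, 6 chains of the basement membrane type COL4, 5 chains of the beaded type COL6 and 19 other chains. A filter of at least 1 FPKM (fragments per kilobase of exon, scaled to the mapped reads of the library) in at least 1 library passed 30 of them, namely 7 fibrillar, 4 COL4, 4 COL6 and 15 other chains.

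RNA was sequenced from H1, an established human embryonic stem cell line, during 10 days of differentiation in a monolayer toward heart muscle cells. All cultures received CHIR99021, an activator of WNT signalling, on day 0 and a low insulin medium on day 1, and 1 library each from days 0, 1 and 2 stands before the arms part. From day 2, NP-ctrl cultures stayed in place untreated, NP-IWP2 cultures stayed in place with IWP2, a blocker of WNT secretion, and passaged cultures were detached with EDTA on day 2 and replated on Matrigel at lower density. The study text adds the ROCK inhibitor Y27632 at replating, so detachment, lower density and the added inhibitor cannot be told apart. Each arm has 1 library on each of days 3, 5, 7 and 10, which gives 15 libraries from 1 line and 1 series of cultures with no replicate at any time. Intervals on ratios are exact 95% Clopper-Pearson intervals that cover counting error only, and p-values measure the spread of an arm difference over days.

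Collagens are trimers of chains that wind into a triple helix. Fibrillar chains (types I, III and V among them) are secreted as procollagens and assemble into the fibres of connective tissue, COL4 chains form the sheet-like network of basement membranes, and COL6 chains assemble into beaded microfilaments around cells. In the heart, fibrillar collagen and type VI collagen come mostly from fibroblasts, whereas muscle and endothelial cells lie against a type IV network.

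Total counts ran from 13254723 to 20250115 per library (median 15269132), with 26241 to 30269 genes above 0. Mitochondrial genes held 1.53% of counts in the passaged library of day 3, the lowest share, and 10.3% in that of day 10, the highest, against a median of 4.80%. The cardiomyocyte markers TNNT2, MYH6, MYL7, NKX2-5, ACTN2, TNNI1, TTN and MYL4 were all at 1 FPKM or more in every arm from day 5, and their summed level on day 10 was 3938 FPKM in passaged, 1698 FPKM in NP-IWP2 and 551 FPKM in NP-ctrl cells. The 8 pluripotency markers summed to 1965 FPKM on day 0 and to between 41.4 (NP-IWP2) and 64.6 FPKM (passaged) on day 10. Most of the passaged sum was TDGF1, at 48.1 FPKM against 8.55 in NP-IWP2 and 0.98 in NP-ctrl cells. LIN28A went the other way, with 8.99 FPKM in passaged, 18.8 in NP-IWP2 and 23.3 in NP-ctrl cells.

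The share of all reads that came from the 38 chains was several times higher in later cultures left in place and stayed near that of day 2 after passaging. On days 0, 1 and 2 the chains held 0.217%, 0.327% and 0.575% of counts. In NP-ctrl they held 0.563%, 2.16%, 3.82% and 3.99% on days 3, 5, 7 and 10. The NP-IWP2 shares were 0.657%, 1.59%, 1.54% and 1.48%, and the passaged shares were 0.665%, 0.604%, 0.777% and 0.482%. On day 3 the 3 arms therefore lay close together, and from day 5 the order was NP-ctrl above NP-IWP2 above passaged.

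Most of that spread was fibrillar. Fibrillar chains alone held 0.181%, 1.38%, 3.08% and 3.19% of counts in NP-ctrl on days 3, 5, 7 and 10, and 0.279%, 0.369%, 0.459% and 0.136% in passaged cells. COL4 chains and the other chains differed less between arms on day 10. COL4 chains held 0.145% of counts in passaged, 0.219% in NP-IWP2 and 0.227% in NP-ctrl cells. The other chains held 0.160%, 0.158% and 0.214% in the same order. The leading chain changed with time and arm. COL18A1 led on day 0 with 22.4% of member counts, COL6A1 led on day 2 with 38.0%, and COL3A1 led in NP-ctrl on day 10 with 39.8%, while COL18A1 led again in passaged cells on day 10 with 22.7%.

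**Figure D1:**
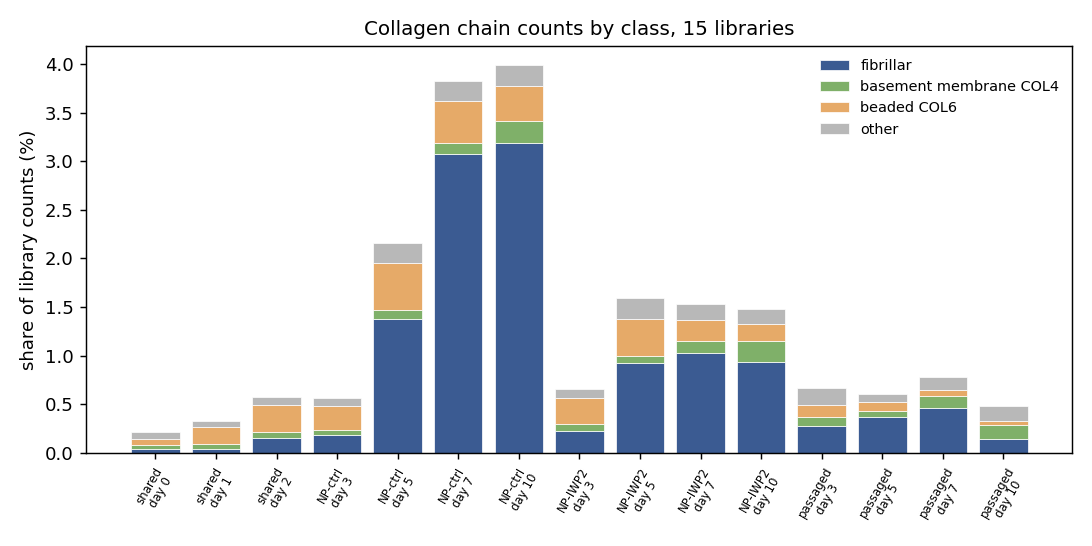
Share of each library's counts (percent, y axis) from the 38 collagen chains in 15 libraries (x axis), stacked by class. The bars reach 3.99% in NP-ctrl on day 10 and stay between 0.482% and 0.777% in passaged cells, and the fibrillar part makes most of the difference.

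Before the arms parted, 6 chains were higher and 2 lower on day 2 than on day 0 by at least 1 in log2(FPKM + 1), the size used for single pairs of libraries throughout, against 6.57% of all 21206 genes above the filter higher and 5.17% lower. With levels rescaled by median-of-ratios factors the split was 6 higher and 4 lower. The highest ratio among chains with more than 3 counts in both libraries was that of COL5A1, the chain common to most type V collagen, which went from 2.89 FPKM on day 0 to 6.94 on day 1 and 67.8 on day 2, 23.4-fold (interval 21.5 to 25.6). COL13A1, a membrane-spanning collagen of cell adhesion sites, was at 1.05, 2.18 and 18.7 FPKM on these days, 17.7-fold higher on day 2 than on day 0 (15.4 to 20.5). COL6A1 and COL6A2 were 5.20-fold and 4.68-fold higher, whereas COL12A1, which binds the surface of type I fibrils, was 23.6-fold lower (15.5 to 37.5).

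On the day after passaging the classes differed in direction from NP-ctrl: fibrillar chains held 0.279% of counts against 0.181%, and COL6 chains 0.129% against 0.247%. Between passaged and NP-ctrl cells on day 3, 6 chains were higher and 1 lower, against 5.02% of all genes higher and 3.48% lower. The higher chains were COL1A1, COL3A1, COL5A3, COL7A1, COL18A1 and COL21A1, and the lower chain was COL6A2. COL5A3 passed the filter only through this passaged library, so its place among the 6 is a description. Rescaled to TPM (values per length that sum to the same total in every library), 11 chains were higher and 1 lower, and the median of all genes moved from 0.03 to 0.28 while that of the members moved from 0.35 to 0.73. The passaged library of this day is the one with the lowest mitochondrial share, and the part of that in the result was not tested.

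COL5A3, a less common type V chain, was the most one-sided case. Its level was 0.22, 0.04 and 0.11 FPKM on days 0, 1 and 2, and 6.49 FPKM (602 counts) in passaged cells on day 3. On the same day it stood at 0.12 FPKM (13 counts) in NP-ctrl and 0.09 FPKM (8 counts) in NP-IWP2. From day 5 on it was at 0.02, 0.47 and 0.14 FPKM in passaged cells, at 0, 0.01 and 0 in NP-ctrl and at 0, 0.01 and 0.22 in NP-IWP2. The passaged library of day 3 thus stood alone, 55.0-fold above NP-ctrl (31.9 to 104) and 59.4-fold above the parent library of day 2 (35.7 to 107).

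COL18A1, whose chain carries heparan sulfate in basement membranes and releases endostatin, was at 57.4, 55.6 and 55.3 FPKM on days 0, 1 and 2. After passaging it was at 145.5, 65.0, 117 and 129 FPKM on days 3, 5, 7 and 10, while NP-ctrl had 52.2, 194, 157 and 144 and NP-IWP2 had 56.8, 204, 130 and 96.6 FPKM. Passaged cells were the highest arm on day 3 (2.79-fold above NP-ctrl, 2.71 to 2.87) and the lowest on day 5. COL7A1, the chain of the anchoring fibrils that tie basement membranes to the tissue under them, was 4.16-fold higher than in NP-ctrl on day 3 (3.61 to 4.82), with 5.63 against 1.35 FPKM, and 2.12-fold higher on day 10 (1.91 to 2.36), with 6.82 against 3.22 FPKM.

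The direction turned within 2 days. Between passaged and NP-ctrl cells, 0 chains were higher and 11 lower on day 5 (3.74% and 4.42% of all genes), 0 higher and 18 lower on day 7 (4.33% and 8.29%), and 1 higher and 16 lower on day 10 (5.67% and 11.7%). The lower chains include COL6A6 on each of these days and COL8A2 on days 7 and 10. Both passed the filter only through static arms, where they were high, so their entries are a description. COL6A6 also enters the COL6 medians that follow. The median difference of the 7 fibrillar chains above the filter in log2(FPKM + 1) was 0.90, -1.10, -2.09 and -3.001 on days 3, 5, 7 and 10, that of the COL6 chains was -0.54, -2.40, -2.60 and -3.79, and that of the COL4 chains was 0.62, -0.42, 0.06 and -0.59. Medians of all genes on these days lay between -0.09 and 0.03. The other chains had medians of 0.26, -0.15, -1.06 and -0.43.

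**Figure D2:**
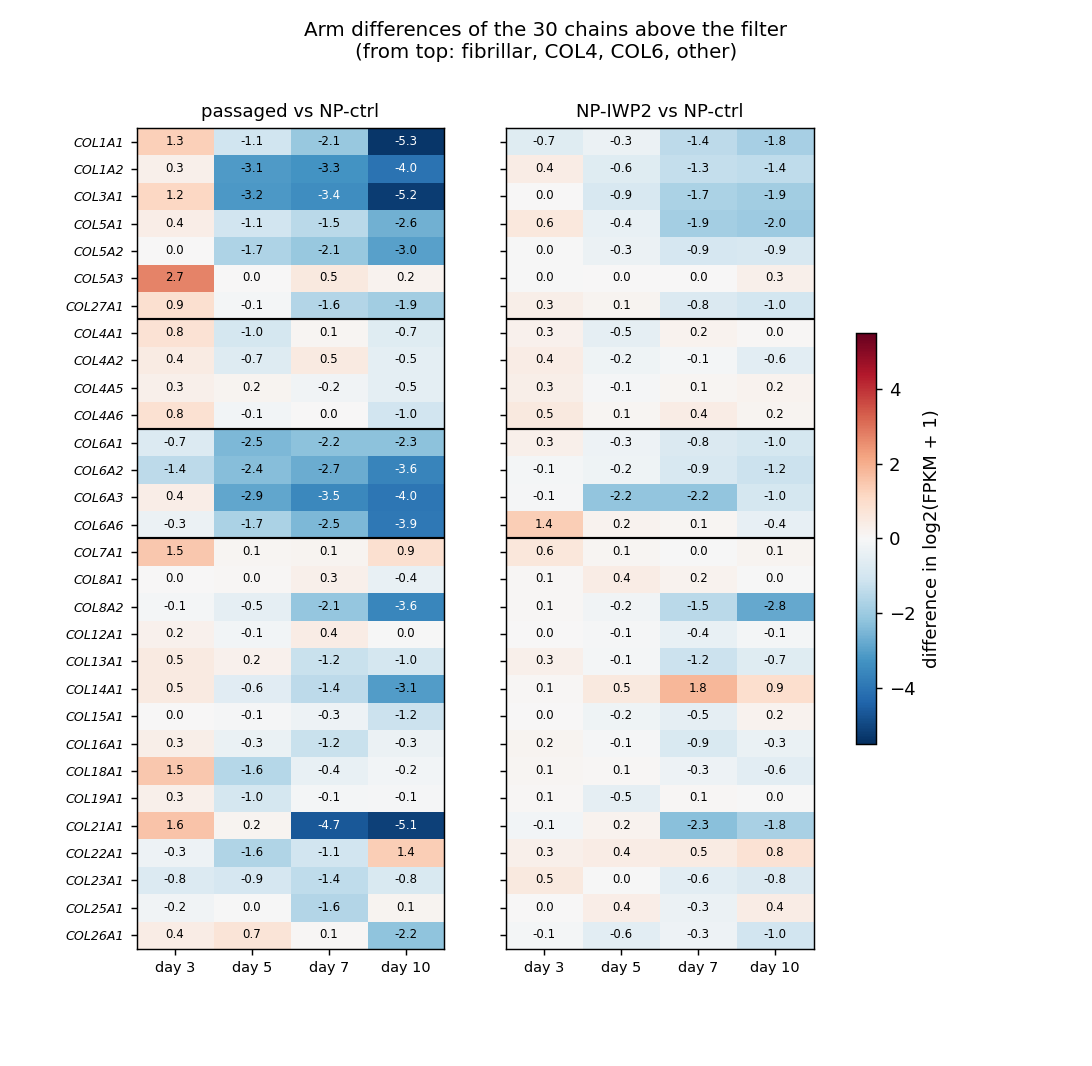
Difference in log2(FPKM + 1) (color and number in each cell) of passaged minus NP-ctrl (left) and NP-IWP2 minus NP-ctrl (right) for the 30 chains above the filter (rows, by class) on days 3, 5, 7 and 10 (columns). On the left most fibrillar rows turn from weak or positive values on day 3 to values as low as -5.34 for COL1A1 on day 10. Of the COL6 rows only COL6A3 is positive on day 3 (0.38), while COL6A2 is already at -1.43. The COL4 rows stay between -1.03 and 0.82.

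Type I collagen, the main fibre of heart connective tissue, consists of 2 COL1A1 chains and 1 COL1A2 chain. COL1A1 (minus strand, chr17:50184101-50201632 in hg38) was at 4.28, 1.52 and 3.09 FPKM on days 0, 1 and 2. It reached 41.1, 457, 775 and 871 FPKM in NP-ctrl and 25.5, 363, 287 and 242 FPKM in NP-IWP2 on days 3, 5, 7 and 10. In passaged cells it was at 102, 212, 181 and 20.6 FPKM, highest of the arms on day 3 and lowest on each later day. On day 10 it was 42.4-fold lower in passaged than in NP-ctrl cells (40.8 to 43.99).

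COL1A2 was at 8.05, 14.7 and 40.2 FPKM before the arms parted. Afterwards it was at 41.6, 189, 439.6 and 464 FPKM in NP-ctrl, at 56.0, 120.1, 175 and 174 in NP-IWP2 and at 50.9, 20.6, 44.5 and 27.2 in passaged cells. On day 3 the 3 arms were within 41.6 to 56.0 FPKM, and on each later day the passaged level was the lowest.

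COL3A1, the chain of the fine reticular fibres of soft tissues, had the highest mean FPKM over the 15 libraries and led the members' counts in NP-ctrl on days 5, 7 and 10 and in NP-IWP2 on days 7 and 10. It was at 0.04 FPKM or less on days 0 to 2 and on day 3 at 1.36 FPKM in passaged, 0.08 in NP-IWP2 and 0.06 in NP-ctrl cells. Then it stood at 812, 2359.96 and 2352 FPKM in NP-ctrl, at 443, 705 and 628 in NP-IWP2 and at 89.6, 218 and 61.2 in passaged cells on days 5, 7 and 10. Passaged cells thus also had far more COL3A1 from day 5 on, at a level 38.4-fold lower than NP-ctrl on day 10 (37.5 to 39.4).

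The type V chains COL5A1 and COL5A2, which set the width of type I fibrils, differed in NP-IWP2, where COL5A1 was lower and COL5A2 higher on day 10 than on day 3. COL5A1 was at 63.7, 134, 207 and 198 FPKM in NP-ctrl, at 95.3, 101.6, 55.2 and 48.7 in NP-IWP2 and at 82.5, 63.4, 72.9 and 30.8 in passaged cells. COL5A2, which lies next to COL3A1 on chromosome 2 on the opposite strand, was at 30.1, 82.2, 91.7 and 114.8 FPKM in NP-ctrl, at 29.3, 65.1, 48.0 and 62.1 in NP-IWP2 and at 30.3, 24.5, 20.6 and 13.5 in passaged cells. Both were lowest in passaged cells on day 10, 6.42-fold (COL5A1, 6.23 to 6.61) and 8.53-fold (COL5A2, 8.08 to 9.003) under NP-ctrl. COL27A1, a fibrillar chain best known from cartilage, was at 8.83, 4.16, 2.34 and 1.71 FPKM in passaged cells against 4.27, 4.64, 9.21 and 9.12 in NP-ctrl and 5.63, 5.22, 4.97 and 4.05 in NP-IWP2. The remaining fibrillar chain, COL24A1, did not exceed 0.51 FPKM.

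**Figure D3:**
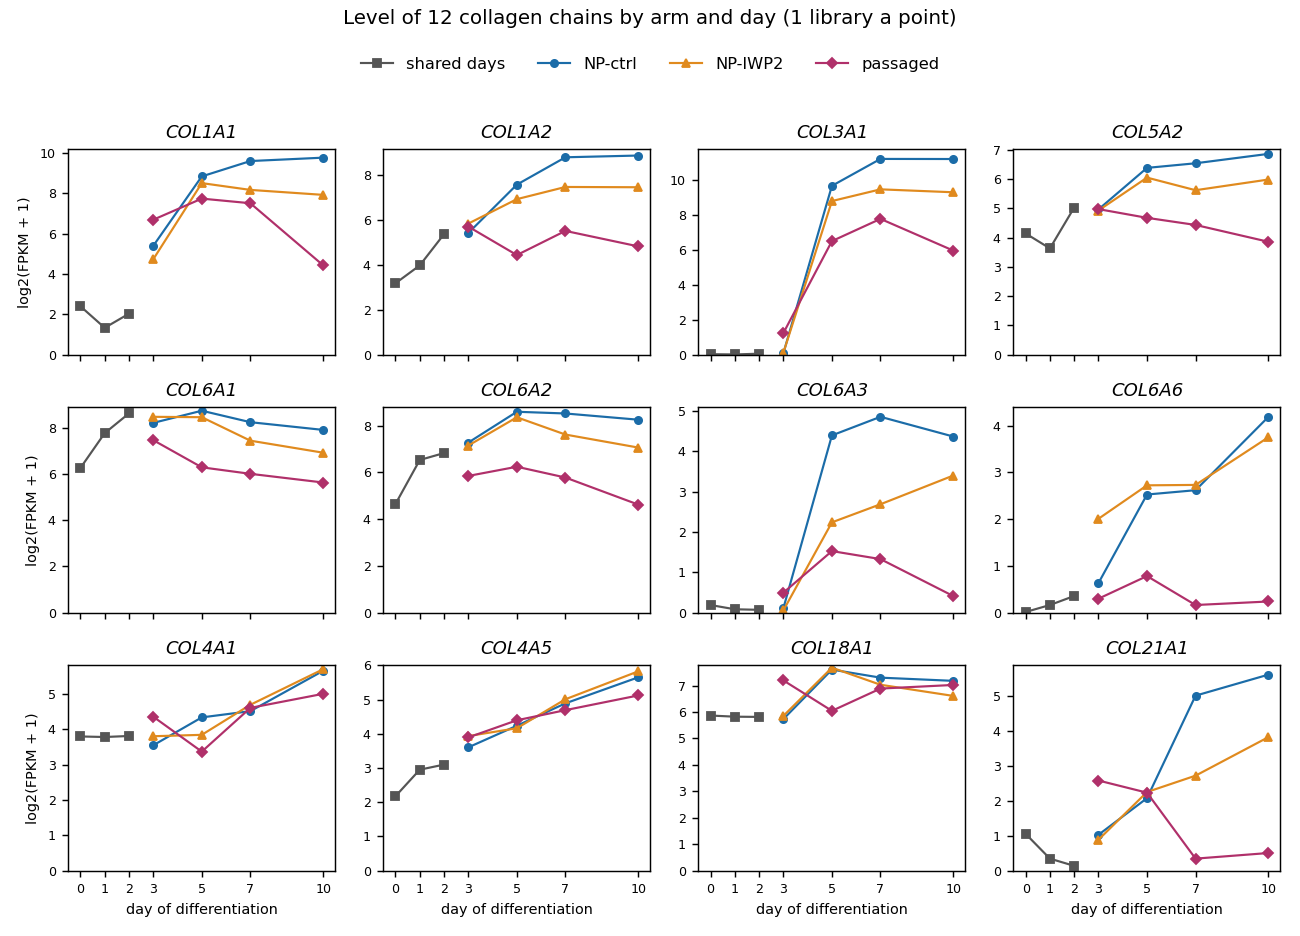
Level of 12 chains in log2(FPKM + 1) (y axis) by day of differentiation (x axis), with 1 library a point and colors for the shared days and the 3 arms. COL1A1 starts highest in passaged cells on day 3 (102 FPKM) and ends lowest on day 10 (20.6 FPKM), COL6A6 stays low only in the passaged series, and COL4A1 and COL4A5 are higher on day 10 than on day 3 in all 3 arms.

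For the change over time, the difference in slope between arms over days 3 to 10 was tested with edgeR's quasi-likelihood test across all genes above the filter, with day as a block and Benjamini-Hochberg adjustment over those 21206 genes. Between passaged and NP-ctrl cells, 13 of 30 chains had a lower slope and 0 a higher one, against 3.64% and 2.52% of all genes. Leaving out day 3, 5, 7 or 10 gave 8, 13, 7 and 4 chains. With all days they were 6 of 7 fibrillar, 0 of 4 COL4, 3 of 4 COL6 and 4 of 15 other chains, with COL6A6 and COL8A2 among them, which passed the filter only through static arms. On simulated data this slope test made more false calls than its threshold implies, whereas the test of the arm effect did not. The simulated libraries were drawn independently and, apart from the changes put in, had no course over days. The simulation therefore cannot show that the arm effect test holds its threshold on these data.

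Among fibrillar chains the slope was lower by 0.89 per day on the log2 scale for COL1A1 (SE 0.10, adjusted p = 0.00285), by 1.07 for COL3A1 (SE 0.26, adjusted p = 0.0410) and by 0.52 for COL1A2 (SE 0.13, adjusted p = 0.0438). COL27A1 (-0.47), COL5A2 (-0.38) and COL5A1 (-0.37) passed as well, and COL5A3 did not. Without day 3 the slope difference was -0.15 for COL1A2 and -0.40 for COL3A1, the highest adjusted p over 9 alternative settings was 0.493 and 0.0979 (lowest 0.000162 and 6.07e-05), and neither passed without day 7 or without day 10 either. COL27A1 passed in 9 of 9 alternative settings.

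**Figure D4:**
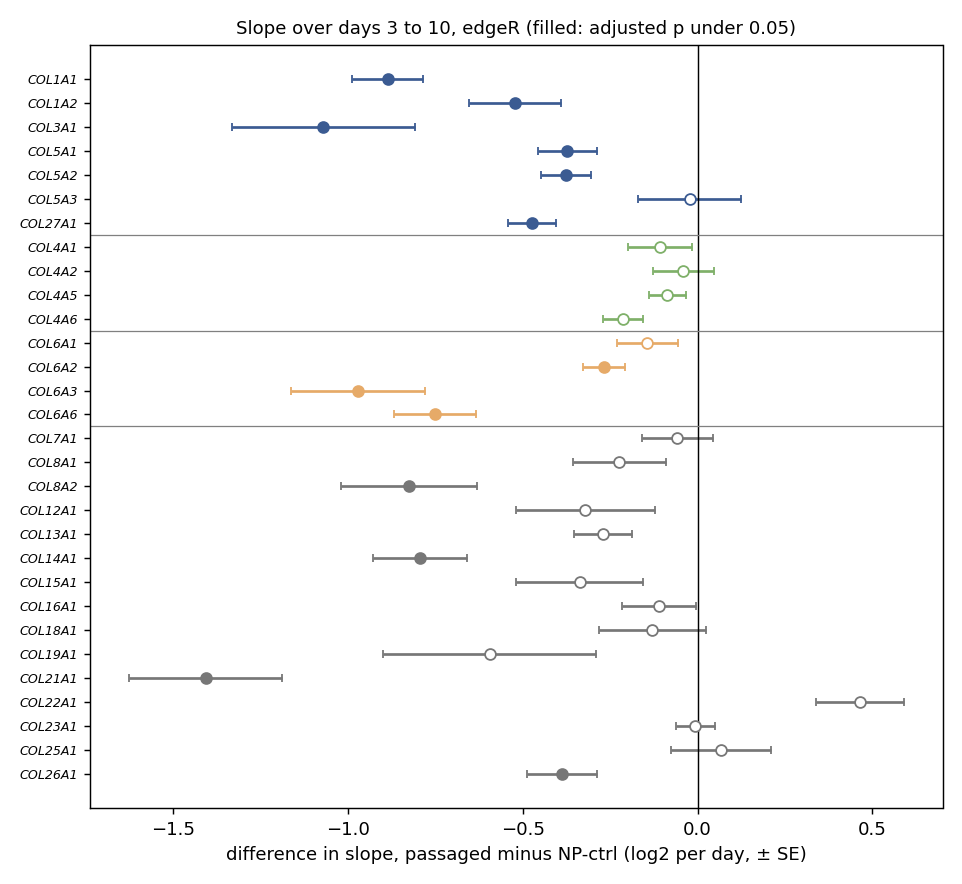
Difference in slope over days 3 to 10, passaged minus NP-ctrl (log2 per day, x axis), for the 30 chains above the filter (rows, by class), with bars of 1 SE and filled points for an adjusted p under 0.05. The 13 filled points all lie left of 0, from -1.41 for COL21A1 to -0.27 for COL6A2, and no COL4 point is filled.

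Type VI collagen is built from COL6A1, COL6A2 and a longer chain such as COL6A3 or COL6A6. COL6A1 and COL6A2 lie side by side on chromosome 21 (chr21:45981770-46005050 and chr21:46098112-46132848 in hg38). COL6A1 was at 75.8, 217 and 394 FPKM on days 0, 1 and 2, then at 296, 427, 302 and 239.6 in NP-ctrl, at 355, 351, 173 and 120.5 in NP-IWP2 and at 176, 77.3, 63.4 and 48.7 in passaged cells. COL6A2 was at 24.1, 91.8 and 113 FPKM, then at 154, 387, 367 and 305 in NP-ctrl, at 141, 328, 196 and 133 in NP-IWP2 and at 56.8, 74.9, 54.1 and 23.7 in passaged cells. The passaged level of either chain was the lowest of the 3 arms on each of the 4 days.

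COL6A3, the most common longer partner, was at 0.14 FPKM or less until day 2. It reached 0.08, 20.02, 27.9 and 19.6 FPKM in NP-ctrl and 0.04, 3.72, 5.44 and 9.55 in NP-IWP2, but 0.41, 1.88, 1.51 and 0.33 in passaged cells. COL6A6, an alternative partner, was at 0.55, 4.76, 5.14 and 17.2 FPKM in NP-ctrl, at 3.02, 5.60, 5.64 and 12.5 in NP-IWP2 and at 0.23, 0.72, 0.12 and 0.18 in passaged cells. On day 10 its passaged level was 94.2-fold under NP-ctrl (64.6 to 143). COL6A5 stayed at 0.47 FPKM or less in all 15 libraries.

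The arm effect, the mean difference over the 4 days with day as a block, was called for 8 chains between passaged and NP-ctrl cells, 1 higher (1.64% of all genes) and 7 lower (2.76%). Of the COL6 chains, 3 of 4 were lower: COL6A2 by 2.52 on the log2 scale (SE 0.29, adjusted p = 0.00105) and COL6A1 by 1.89 (SE 0.28, adjusted p = 0.00435), and COL6A6 was the other. COL6A6 and COL8A2 are among the 7 but passed the filter only through static arms, where they were high, and COL5A3, the 1 higher chain, only through the passaged library of day 3, so these calls are not read as results and their levels are a description. COL6A2 was the only member called in 9 of 9 alternative settings, and it was the single chain called without day 7, while leaving out day 3, 5 or 10 gave 15, 3 and 6 chains. COL1A2 (-2.54, adjusted p = 0.0336), COL5A2 (-1.65, adjusted p = 0.0314) and COL23A1 (-1.10, adjusted p = 0.0262) were the other lower chains.

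For COL5A3 the fit rests on few counts outside day 3, with 2 against 0 counts on day 5 and 14 against 0 on day 10. Without day 5 its adjusted p was 0.0997 and without day 7 it was 0.175, within a range of 5.46e-10 to 0.342 over 9 alternative settings.

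The same contrast against NP-IWP2 had 3 lower chains and 0 higher ones (0.915% and 0.415% of all genes), and all 3 were COL6 chains. COL6A6 was among them with the same limit, COL6A2 was lower by 1.84 (SE 0.28, adjusted p = 0.0120) and COL6A1 by 1.39 (SE 0.27, adjusted p = 0.0336). Without day 5, and likewise without day 7, 0 chains were called by edgeR (8 without day 3 and 4 without day 10), and with all days 10 chains had an unadjusted p under 0.05. In pairs of libraries, 5 chains were higher and 4 lower in passaged than in NP-IWP2 cells on day 3 (3.65% and 5.05% of all genes; 7 and 3 in TPM), and 0 higher and 13 lower on day 10 (3.07% and 7.01%). COL5A3 is among the 5 higher chains, and COL6A6 among the 4 and the 13 lower ones, with the same limit of the filter.

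Slopes of passaged against NP-IWP2 cells were lower for 5 chains and higher for 0 (0.844% and 0.179% of all genes). The COL6A3 slope was lower by 1.07 per day on the log2 scale (SE 0.19, adjusted p = 0.0328), COL21A1 by 1.10 (SE 0.21, adjusted p = 0.0424), COL14A1 by 0.91 (SE 0.14, adjusted p = 0.0237) and COL1A1 by 0.70 (SE 0.10, adjusted p = 0.0188). COL5A3, the other chain called, passed the filter only through passaged cells, and its difference was -0.16 without day 10. In all, 2 chains were called without day 10. The contrasts of passaged cells against both static arms share the passaged libraries.

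COL4 chains are printed here with sequence because they lie in head-to-head pairs: COL4A1 and COL4A2 start 126 bases apart on opposite strands of chromosome 13, and COL4A6 and COL4A5 start 379 bases apart on chromosome X. For each pair the longest run between the starts without an annotated exon is given, from the plus strand of RefSeq's GRCh38.p14. On chromosome 13 it lies at chr13:110307158-110307257. On chromosome X only its central 250 bases are given and searched, at chrX:108439543-108439792. Capitals mark CCAAT or its reverse complement ATTGG, and GGGCGG on the plus strand.
COL4A1/COL4A2: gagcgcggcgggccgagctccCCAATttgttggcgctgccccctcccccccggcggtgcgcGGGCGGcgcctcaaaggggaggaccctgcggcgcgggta
COL4A6/COL4A5: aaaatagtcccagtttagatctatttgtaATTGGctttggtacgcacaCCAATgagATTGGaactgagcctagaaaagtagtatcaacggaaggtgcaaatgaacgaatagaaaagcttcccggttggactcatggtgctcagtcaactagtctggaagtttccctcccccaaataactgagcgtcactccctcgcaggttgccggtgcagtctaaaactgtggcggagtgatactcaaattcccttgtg

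The COL4A1/COL4A2 stretch is 78.0% G or C (median of 60% over 35116 RefSeq gene-start windows cut to the same length). It holds CCAAT 1 time and GGGCGG 1 time, found in 18.1% and 31.3% of those windows on either strand, and no TATAAA (4.99%). The COL4A6/COL4A5 stretch is 46.0% G or C (median of 58.0%), holds CCAAT 3 times on both strands together (32.0% of windows), and holds neither GGGCGG (42.6%) nor TATAAA (10.7%). A match describes letters in the window only.

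All 4 measured COL4 chains were higher on day 10 than on day 3 in each arm, and on day 10 COL4A1, COL4A5 and COL4A6 were lowest in passaged cells. COL4A1, part of the most widespread type IV trimer with COL4A2, was at 12.9, 12.8 and 13.1 FPKM on days 0, 1 and 2, then at 10.7, 19.3, 21.9 and 49.6 in NP-ctrl, at 13, 13.4, 24.96 and 51.2 in NP-IWP2 and at 19.6, 9.35, 23.4 and 31.2 in passaged cells. COL4A2 was at 12.6, 10.7 and 12.4 FPKM, then at 9.82, 10.99, 16.1 and 33.6 in NP-ctrl, at 13.2, 9.26, 14.7 and 22.3 in NP-IWP2 and at 13.6, 6.34, 23.1 and 23.1 in passaged cells. For both chains the passaged level was the lowest of the arms on day 5. On day 3 that of COL4A1 was the highest. The COL4A2 level of that day lay close to NP-IWP2 (1.03-fold, 0.986 to 1.08).

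COL4A5, mutated in Alport syndrome of the kidney, was at 3.52, 6.74 and 7.58 FPKM, then at 11.2, 17.9, 28.7 and 49.3 in NP-ctrl, at 14.3, 16.9, 31.3 and 55.8 in NP-IWP2 and at 13.9, 20.1, 24.9 and 33.8 in passaged cells. COL4A6, its partner in smooth muscle basement membranes, was at 2.15, 4.14 and 5.75 FPKM, then at 6.99, 14.5, 17.4 and 33.3 in NP-ctrl, at 10.5, 15.5, 23.7 and 37.2 in NP-IWP2 and at 13.2, 13.1, 17.7 and 15.8 in passaged cells. On day 10 the passaged level was 1.46-fold (COL4A5) and 2.11-fold (COL4A6, 2.00 to 2.22) under NP-ctrl. COL4A3 and COL4A4, the partners of COL4A5 in the kidney, did not exceed 0.13 and 0.36 FPKM.

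No COL4 chain was called in any arm effect or slope by edgeR with the filter and all days. The arm effects of passaged against NP-ctrl cells were -0.12, -0.02, -0.01 and 0.00 for the 4 chains with SE of 0.16 to 0.26, and none had an unadjusted p under 0.05. Of the slopes, that of COL4A6 had an unadjusted p under 0.05 against NP-ctrl (-0.21 per day, SE 0.06, adjusted p = 0.058) and against NP-IWP2 (-0.19 per day, adjusted p = 0.182). Against NP-ctrl COL4A6 was called by DESeq2 (-0.22, adjusted p = 0.0138), by edgeR without the filter (adjusted p = 0.0448) and by edgeR without day 5 (-0.24, adjusted p = 0.0497), within a range of 0.0138 to 0.535 over 9 alternative settings. In the annotation of the deposited files, unlike in RefSeq, COL4A2 starts inside COL4A1 (at 110305812, with the end of COL4A1 at 110307157), and with the strand setting of the counting not stated, reads in the overlap cannot be told apart.

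Partner chains kept their ratio to different degrees. The ratio of COL4A5 to COL4A6 in FPKM stayed between 1.06 and 2.15 over 15 libraries, and that of COL4A1 to COL4A2 between 0.988 and 2.30. COL6A1 to COL6A2 went from 3.49 on day 2 on day 10 to 2.05 in passaged, 0.905 in NP-IWP2 and 0.785 in NP-ctrl cells. COL1A1 to COL1A2 was 0.0768 on day 2, and in passaged cells it was 2.01, 10.3, 4.07 and 0.755 on days 3, 5, 7 and 10, against 0.987, 2.42, 1.76 and 1.88 in NP-ctrl and 0.456, 3.02, 1.64 and 1.39 in NP-IWP2.

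**Figure D5:**
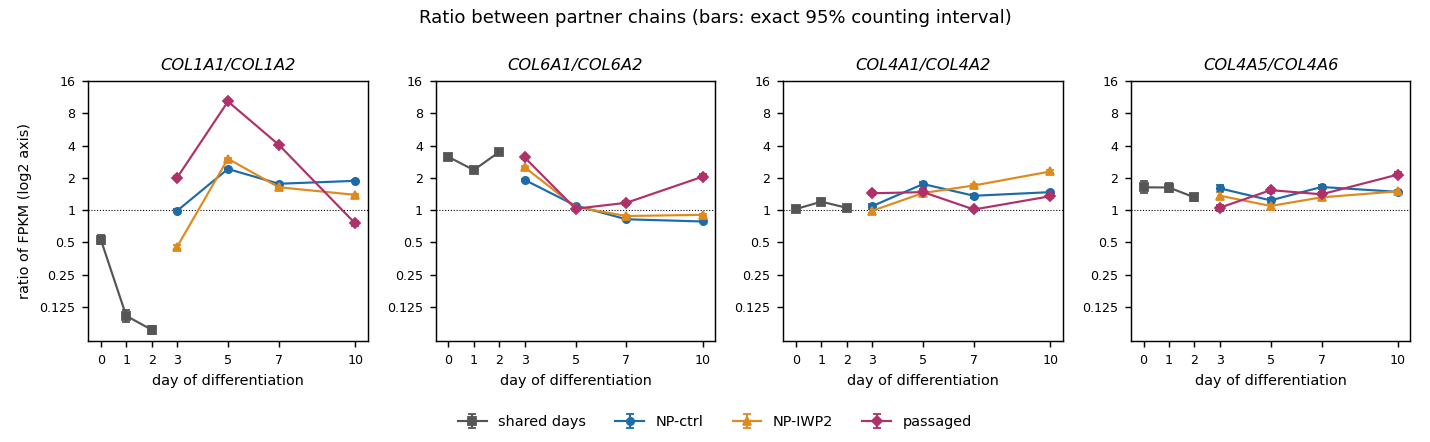
Ratio of FPKM between 4 pairs of partner chains (y axis, log2 scale) by day of differentiation (x axis), in the shared days and the 3 arms, with bars for the exact 95% counting interval. The COL1A1/COL1A2 ratio runs from 0.0768 on day 2 to 10.3 in passaged cells on day 5, whereas both COL4 panels stay between 0.988 and 2.30.

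Of the other 19 chains, COL21A1 and COL14A1, which bind to fibrils without forming them, had lower slopes after passaging than in either static arm. COL21A1 was at 1.08, 0.27 and 0.10 FPKM on days 0, 1 and 2, then at 1.04, 3.23, 31.5 and 48.4 in NP-ctrl, at 0.85, 3.78, 5.62 and 13.3 in NP-IWP2 and at 5.01, 3.72, 0.27 and 0.42 in passaged cells. It was highest in passaged cells on day 3 and 116-fold under NP-ctrl on day 10 (86.1 to 159.5), and its slope difference of -1.41 per day (SE 0.22, adjusted p = 0.00787) passed in 9 of 9 alternative settings. COL14A1 was at 0.22, 1.36, 3.18 and 11.9 FPKM in NP-ctrl, at 0.28, 2.38, 13.7 and 23.6 in NP-IWP2 and at 0.70, 0.55, 0.54 and 0.54 in passaged cells (slope difference of -0.79 to NP-ctrl, SE 0.13, adjusted p = 0.0105). NP-IWP2 was above NP-ctrl for COL14A1 and below it for COL21A1 on days 7 and 10.

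COL22A1, a collagen of muscle-tendon junctions, was the 1 chain higher in passaged than in NP-ctrl cells on day 10. It was at 0.38, 1.68, 6.85 and 34.8 FPKM in passaged cells, at 0.69, 7.34, 15.4 and 13 in NP-ctrl and at 1.08, 10.1, 21.5 and 23.6 in NP-IWP2. Passaged cells had the lowest level until day 7 and the highest on day 10, 2.68-fold above NP-ctrl (2.52 to 2.85). Its slope difference of 0.46 per day (SE 0.13) had an adjusted p of 0.0573.

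COL8A2, a short-chain collagen of the corneal Descemet membrane, was at 0.16, 0.40, 4.14 and 11.8 FPKM in NP-ctrl, at 0.22, 0.24, 0.85 and 0.80 in NP-IWP2 and at 0.08, 0.00, 0.19 and 0.06 in passaged cells. Only NP-ctrl passed 1 FPKM. COL26A1 was at 42.2, 20.5, 16.3 and 20.8 FPKM in NP-ctrl, at 38.9, 13.5, 13.4 and 9.51 in NP-IWP2 and at 57.1, 33.8, 17.1 and 3.75 in passaged cells, and its slope difference to NP-ctrl of -0.39 (SE 0.10, adjusted p = 0.0494) was -0.03 without day 10. COL23A1, a membrane-spanning chain, was at 15.99, 13.5, 8.53 and 6.22 FPKM in NP-ctrl, at 23.7, 13.2, 5.45 and 3.22 in NP-IWP2 and at 9.09, 6.60, 2.63 and 3.02 in passaged cells, lowest in passaged cells on every day. COL13A1 went from 8.47 to 4.83 FPKM in NP-ctrl, from 10.6 to 2.69 in NP-IWP2 and from 12.2 to 1.94 in passaged cells between days 3 and 10.

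The rest were low. COL12A1, COL15A1, COL16A1, COL19A1, COL25A1 and COL8A1 reached at most 2.21, 2.57, 3.89, 1.34, 6.04 and 2.24 FPKM. COL10A1, COL17A1, COL20A1 and COL28A1 did not exceed 0.23, 0.16, 0.06 and 0.45 FPKM. With COL24A1, COL4A3, COL4A4 and COL6A5 they are the 8 chains under the filter, which entered no test that used the filter.

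IWP2 alone was compared with NP-ctrl in the same way. NP-IWP2 against NP-ctrl cells had 1 chain higher and 0 lower on day 3 (3.29% and 0.858% of all genes), namely COL6A6, and 0 higher and 9 lower on day 10 (3.71% and 5.64%). The 9 were COL1A1, COL1A2, COL3A1, COL5A1, COL6A2, COL8A2, COL21A1, COL26A1 and COL27A1. COL5A1 was 4.06-fold lower (3.96 to 4.16) and COL3A1 3.74-fold (3.71 to 3.78). COL8A2 was 14.8-fold lower (11.4 to 19.7), but it passed the filter only through NP-ctrl, where it was high. Its ratio and its place among the 9 are therefore a description.

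No chain was called between NP-IWP2 and NP-ctrl cells by edgeR with the filter and all 12 libraries, and without the filter 5 were called in the arm effect and 2 in slope. The arm effect called 0 higher and 0 lower, against 0.00943% of all genes in each direction, with 4 chains and 1009 genes at an unadjusted p under 0.05 and 0 chains called by DESeq2 or limma. The slope called 0 higher and 0 lower, against 0.0% of all genes in each direction, with 8 chains and 1990 genes at an unadjusted p under 0.05, 2 chains (COL5A1 and COL8A2) called by DESeq2 and 0 by limma. For COL8A2 the limit of the filter holds here too. Whether passaging and IWP2 differ in their effect is the contrast of passaged against NP-IWP2 given above, and both share the NP-ctrl libraries in their own comparisons.

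Within arms, day 10 against day 3 had 20 chains higher and 1 lower in NP-ctrl (14.0% and 9.54% of all genes), 15 higher and 4 lower in NP-IWP2 (11.6% and 13.5%), and 5 higher and 11 lower in passaged cells (10.2% and 15.4%). COL3A1 was 44.9-fold higher on day 10 than on day 3 in passaged cells (37.6 to 54.0) and COL22A1 91.3-fold (67.2 to 127), whereas COL26A1 was 15.2-fold lower (13.1 to 17.8) and COL5A3 47.8-fold lower (28.3 to 88.0). COL5A3, among the 11, passed the filter only through the passaged library of day 3. COL6A6 and COL8A2, among the 20, passed it only through static arms, so these entries are a description. The median difference of the fibrillar chains was -1.39 in passaged, 1.06 in NP-IWP2 and 1.896 in NP-ctrl cells, and that of the COL4 chains was 0.69, 1.81 and 2.07 in the same order.

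Markers of some other cell types were also lower in passaged cells. The summed level of 8 fibroblast and mesenchyme markers was 114, 485, 912 and 881 FPKM in NP-ctrl on days 3, 5, 7 and 10, 84.7, 225, 195 and 250.2 in NP-IWP2, and 135, 79.4, 28.2 and 16.8 in passaged cells. On day 10, 8 of the 8 were at 1 FPKM or more in NP-ctrl and 4 of 8 in passaged cells, where DCN was at 0.05 and THY1 at 0.20 FPKM and none was at 0. The 8 endoderm and yolk sac markers summed on day 10 to 19.5 FPKM in passaged, 1232 in NP-IWP2 and 4187 in NP-ctrl cells, when 2 of the 8 were at 0 in passaged cells. On day 10 the 8 epicardial markers summed to 179, 115 and 40.4 FPKM in the order NP-ctrl, NP-IWP2, passaged. The 8 endothelial markers summed to 129, 131 and 125 FPKM in the same order. KDR, already at 18.0 to 62.8 FPKM on days 0 to 2, made most of the endothelial sum, with 93.0, 100.4 and 119 FPKM. The other endothelial markers were all lowest in passaged cells, among them TEK (22.8, 13.5 and 0.68 FPKM) and EGFL7 (8.66, 9.80 and 4.28). The part of these cell types in the collagen results was not tested, and in bulk samples fewer cells of a type and less RNA per cell cannot be told apart.

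Genes that make, cut, link, bind and degrade collagen were measured as 6 lists with 58 genes above the filter. Between passaged and NP-ctrl cells 3 were higher and 7 lower in the arm effect, against 1.64% and 2.76% of all genes, and 1 higher and 10 lower in slope, against 2.52% and 3.64%. MEP1A, ITGA11 and DDR2, among the 7, passed the filter only through static arms, so their calls are not read as results. Between passaged and NP-IWP2 cells 1 was higher and 1 lower in the arm effect (0.415% and 0.915% of all genes) and 1 higher and 2 lower in slope (0.179% and 0.844%). These shares are the background for the counts in each list, and the lists hold 7 to 14 genes above the filter. Between NP-IWP2 and NP-ctrl cells edgeR called 0 in either test.

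Of 8 propeptide processing genes 3 had a lower slope against NP-ctrl. PCOLCE, which speeds the removal of the procollagen end by BMP1, was at 11.99, 62.8, 46.5 and 24.4 FPKM in NP-ctrl and at 20.3, 53.4, 15.4 and 3.46 in passaged cells (-0.48 per day, SE 0.05, adjusted p = 0.00152). ADAMTS14, another procollagen protease (-0.75, adjusted p = 0.0273), and BMP1 (-0.27, adjusted p = 0.0276) were the other lower slopes. In the arm effect ADAMTS3 was higher. MEP1A, also called, passed the filter only through NP-ctrl and had 0 counts in passaged cells, so its call is not read as a result.

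Of 12 chaperone and export genes 2 had a lower slope and 1 a lower arm effect. CREB3L1, a transcription factor that drives collagen secretion genes, was at 3.85, 8.07, 18.4 and 22.4 FPKM in NP-ctrl and at 7.23, 5.21, 4.96 and 1.44 in passaged cells (-0.65 per day, SE 0.08, adjusted p = 0.00344). RRBP1, a ribosome-binding protein of the endoplasmic reticulum, had a slope difference of -0.41 (adjusted p = 0.00578), and FKBP14, a prolyl isomerase, an arm effect of -0.74 (adjusted p = 0.0271).

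Of 14 hydroxylases and their partners 1 was higher and 2 lower in the arm effect, and 1 lower in slope. COLGALT2, which adds galactose to hydroxylysine, was at 2.33, 4.91, 3.82 and 3.81 FPKM in NP-ctrl and at 5.18, 16.2, 40.0 and 19.1 in passaged cells, higher on all 4 days (2.13, SE 0.38, adjusted p = 0.0118). P4HA2, a prolyl 4-hydroxylase subunit, was lower (-1.03, adjusted p = 0.0110), as was P4HA1, and P3H3 had a lower slope (-0.55, adjusted p = 0.00716).

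Among 7 crosslinking genes the lysyl oxidase LOX was lower in the arm effect against both static arms (-2.41 against NP-IWP2, SE 0.39, adjusted p = 0.0166). LOXL1 had a lower slope against NP-ctrl (-0.33, adjusted p = 0.0188) and the transglutaminase TGM2 a higher one (0.50, adjusted p = 0.0349). Among 8 receptors, ITGA11, an integrin chain that binds fibrillar collagen, and DDR2 were called lower than in NP-ctrl but passed the filter only through the static arms, and ITGA2 was higher. Against NP-IWP2 the slope was lower for ITGA1 (-0.82, adjusted p = 0.0160) and higher for MRC2, which takes up collagen fragments (0.42, adjusted p = 0.0214). Of 9 degradation genes MMP16 (-0.62, adjusted p = 0.00844) and MMP2 had a lower slope against NP-ctrl, and MMP14 had -0.24 (adjusted p = 0.0574).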

How the data were processed

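The 38 members and all gene lists were chosen with earlier results of these data known. The 15 bulk RNA libraries were assigned to arms and days from the sample labels. The authors trimmed reads with cutadapt 1.9.1, aligned them with HISAT2 2.0.1 to hg38 and counted them with HTSeq 0.6.1, per the submitters' processing notes, and used DESeq2. The deposited counts are raw reads per gene, and the FPKM values were computed by the authors from those counts and exon lengths (recomputed values differed by at most 0.005). A library kit for long reads stands in the study's methods beside these short-read tools, so values per length carry a doubt, and whether counting used strand is not given in the sources used here. Of 60605 genes, 60463 matched GENCODE 44 by identifier and 93.8% had the same coordinates (36 of 38 members).

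Genes with at least 1 FPKM in at least 1 library (21206) were tested on the deposited counts with edgeR 4.0.16 (quasi-likelihood, TMM factors) in R 4.3.3, with day as a blocking factor across the 12 libraries from day 3 onward: an arm effect (6 residual degrees of freedom) and a difference in linear slope over days between arms (4). Benjamini-Hochberg adjustment ran over all genes tested, with a threshold of 0.05. The tests were checked on simulated counts. Single pairs of libraries have no test, and a difference of at least 1 in log2(FPKM + 1) was counted, which understates changes of low genes. Ratios use counts per library total, with a floor of 3 counts. Members were given with all values where they led their class, were partners of such chains, or passed a test, and up to 3 genes of each collagen pathway list were given by lowest p. COL13A1 on days 0 to 2, COL7A1 and COL22A1 were singled out after their values were seen. DESeq2 1.42.0, limma 3.58.1, other filters, scalings and pseudocounts, and each day left out were tried as alternatives. RefSeq windows were found for 28 of 38 members, and the COL4 pairs are shown.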

Additional observations from a re-analysis of the deposited data

Results flagged for a closer look

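Chains were singled out here because their course over days 3 to 10 differed between arms by the edgeR slope test (adjusted p under 0.05), and values are slope differences in log2 per day. Passaged minus NP-ctrl slopes were -0.89 for COL1A1, -0.52 for COL1A2, -1.07 for COL3A1, -0.37 for COL5A1, -0.38 for COL5A2 and -0.47 for COL27A1 among fibrillar chains. Among COL6 chains they were -0.27 for COL6A2, -0.97 for COL6A3 and -0.75 for COL6A6. Among the other chains they were -0.82 for COL8A2, -0.79 for COL14A1, -1.41 for COL21A1 and -0.39 for COL26A1. Passaged minus NP-IWP2 slopes were -0.70 for COL1A1, -0.95 for COL5A3, -1.07 for COL6A3, -0.91 for COL14A1 and -1.10 for COL21A1. COL6A6 and COL8A2 passed the filter only through static arms and COL5A3 only through passaged cells, where they were high, so their slopes are a description. COL1A1, COL6A3, COL14A1 and COL21A1 were called in both contrasts, which share the passaged libraries.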

How the results depend on the processing

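Counts of chains called moved as follows. With a pseudocount of 0.1, chains past the size used for pairs went from 7 to 12 for passaged against NP-ctrl on day 3, from 9 to 14 for passaged against NP-IWP2 on day 3 and from 8 to 14 for day 2 against day 0, and TPM gave 12 for the first of these. TPM moved the median of all genes by more than 0.1 in passaged against NP-ctrl on day 7 (-0.07 to -0.22) and day 10 (-0.09 to -0.38), in passaged against NP-IWP2 on day 10 (-0.06 to -0.28), in NP-IWP2 against NP-ctrl on day 3 (0.06 to 0.18), and between days 3 and 10 in NP-ctrl (0.04 to 0.31) and passaged cells (-0.07 to -0.35). The arm effect of passaged against NP-ctrl (8 chains) gave 2 with limma, 18 without the filter, 2 with only the compared arms fitted and 1 (without day 7) to 15 (without day 3) with a day left out, with 3 without day 5. Against NP-IWP2 (3 chains) it gave 6 with DESeq2, 0 with limma, 12 without the filter and 0 (without day 5 or day 7) to 8 (without day 3) with a day left out. NP-IWP2 against NP-ctrl (0 chains) gave 5 without the filter and 2 with only the compared arms. The slope of passaged against NP-ctrl (13 chains) gave 7 with limma and 4 (without day 10) to 13 with a day left out, with 8 without day 3 and 7 without day 7. Without day 10, COL14A1, COL21A1, COL27A1 and COL6A3 remained. Against NP-IWP2 (5 chains) it gave 9 with DESeq2, 0 with limma, 11 without the filter and 2 (without day 10) to 5 with a day left out. NP-IWP2 against NP-ctrl (0 chains) gave 2 with DESeq2 and 2 without the filter. The slope differences of COL4A1 and COL4A2, not called, changed sign with a day left out (-0.179 to 0.0864 and -0.0961 to 0.0743). The cause of these moves was not tested. Of 33 single-chain values, 33 kept direction and side of the threshold with median-of-ratios factors, 32 with DESeq2, 32 without the filter and 13 with limma. Leaving out day 3, 5, 7 or 10 kept 21, 21, 16 and 16 of them, and 2 changed direction without day 3 and 1 without day 10. With only the compared arms fitted, 5 of 11 were kept, and with log2 of day 20 of 22. Arms were matched within days by the day block, and with every sample as replicate 1 no further pairing was possible. With 1 library per arm and day, differences under the day-to-day spread were not detectable, and chains at few counts (COL5A3, COL8A2 and COL6A6 in passaged cells) have wide counting intervals.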
